A study of Mus musculus with 4 samples.

Results

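The solute carriers (Slc genes) described here are the membrane transporters whose mRNA was detected at an appreciable level in P14 CD8 T cells. Members were chosen from the deposited Cuffdiff table as symbols that begin with Slc and a digit and that reach a mean of at least 2 FPKM (fragments scaled for transcript length and for sequencing depth) over the 4 libraries. Slc2a1, Slc2a3, Slc16a1 and Slc16a3, carriers of glucose and lactate, were left out by name. Of 24312 genes listed, 373 carry an Slc symbol, 145 of these reach the level, and 141 are members. The rule uses the level and those names, so the levels are a description; it uses no difference between the groups. The members closest to the limit were Slc39a13 (2.00 FPKM) and Slc17a5 (2.07 FPKM), and the nearest Slc genes below it were Slc16a13 (1.92) and Slc7a14 (1.85).

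Poly(A) RNA was sequenced from cultured C57BL/6 P14 CD8 T cells, which all bear a transgenic receptor for gp33, a viral peptide. In both groups the cells were activated for 1 day in 100 ng/ml gp33, spin transduced, activated for 1 further day, grown on in 10 ng/ml IL-2 for 2 days, sorted as CD8+ GFP+, and held for 2 more days in 1 ng/ml IL-2. The control group (MIG) carried the empty retrovirus MSCV-IRES-GFP. The BATF group carried the same virus with BATF, a bZIP transcription factor related to FOS and JUN, expressed from the vector and not from the gene's own promoter. Each group had 2 libraries, called biological replicates; it is not stated whether separate mice were used, so each p-value reflects only library-to-library spread, which may be technical. The comparison asks which carrier mRNAs differ when BATF is added to T cells that are otherwise cultured alike.

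Solute carriers move amino acids, ions, nucleosides, sugars, vitamins and metabolites across the plasma membrane and the membranes of organelles. Activated T cells depend on them, because growth and division need imported amino acids, and the large mitochondrial family Slc25 links the matrix to the cytosol. Many carriers exchange one solute for another or draw on the sodium or proton gradient, and some, such as the light chain Slc7a5, need a partner protein to reach the surface.

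Libraries held between 19004726 and 24795707 fragments, and every member had at least 75 estimated fragments in each library. Batf, the overexpressed gene, stood at 51.5 and 36.4 FPKM in MIG and at 1858 and 1314 FPKM in BATF, higher in the libraries labelled BATF. All 7 T cell markers read (Cd8a, Cd8b1, Cd3e, Cd3d, Cd3g, Thy1 and Cd2) lay between 140.8 and 1003 FPKM. Their summed level was 3200.5 and 3128 FPKM in MIG and 2599 and 2949 in BATF. Cd8a stood at 226.1 and 247.7 against 140.8 and 202.8 FPKM (edgeR adjusted p = 0.337). Summed markers of CD4 T cells, dendritic cells, NK cells, myeloid cells and erythroid cells or platelets ranged from 0.0844 to 2.97 FPKM in any library. B cell markers summed to 17.9 and 13.8 FPKM in MIG and 12.6 and 11.7 in BATF, with Cd79b the only 1 of 5 at or above 1 FPKM. The carriers that mark other blood cells, Slc11a1 of macrophages and Slc4a1 of red cells, stayed at or below 0.141 FPKM. In bulk RNA, fewer cells of a type and less RNA per cell cannot be told apart.

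Members fell into 5 substrate classes. There were 15 amino acid carriers, 22 metal ion carriers, 5 nucleoside carriers, 36 mitochondrial carriers and 63 others. The members came from 41 of the 49 Slc families listed. Coverage of families differed: 35 of 47 listed Slc25 genes, 19 of 27 Slc35 genes and 11 of 14 Slc39 genes were members, against 1 of 20 Slc6 genes, which include the neurotransmitter carriers, and 1 of 26 Slc22 genes, which carry organic ions. No Slc13, Slc18 or Slc34 gene was a member. Of the 141 members, 39 lay between 2 and 5 FPKM, 32 between 5 and 10, 37 between 10 and 20, 21 between 20 and 50, 8 between 50 and 100, and 4 at 100 or more. Among the symbols, 5 belong to genes that are not transporters and are members by the rule: the scaffold protein gene Slc9a3r1, Slc4a1ap, Slc7a6os, Slc36a1os and the pseudogene Slc2a4rg-ps.

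**Figure D1:**
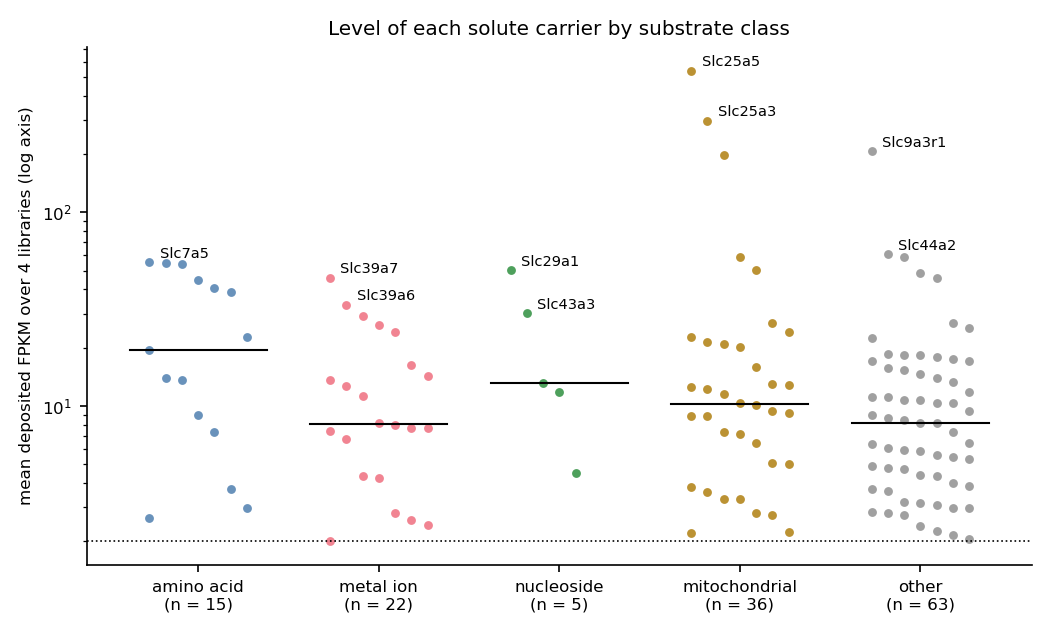
Mean deposited FPKM of each of the 141 members over the 4 libraries (log axis) by substrate class; each point is 1 gene, the bar is the class median and the dotted line the level of 2 FPKM that chose the members. Slc25a5 at 539.6 FPKM leads the mitochondrial class, and the amino acid class has the highest median, 19.5 FPKM.

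The zinc transporter Slc30a4 was lower in BATF and was the only member to pass the test, while 140 of 141 members did not pass and 0 were called higher. Differences were called with the quasi-likelihood test of edgeR at a threshold of 0.05, adjusted over 13008 genes by the Benjamini-Hochberg method, which called 1.09% of all genes (0.884% higher and 0.208% lower in BATF). Among members the share was 0.709%, close to that background, so the low count does not set the members apart from other genes. At an unadjusted edgeR p under 0.05 there were 10 members higher and 9 lower, 13.5% of members beside 10.8% of all genes (6.69% higher and 4.09% lower). DESeq2 called 2 members higher (Slc2a8 and Slc36a1) and 2 lower (Slc30a4 and Slc6a6), 2.84% of members beside 3.03% of all genes. The count changed with single libraries: without MIG replicate 1 edgeR called 1 higher and 2 lower (2.44% of all genes), and without MIG replicate 2 it called 0 higher and 3 lower (2.51% of all genes). Without BATF replicate 1 (1.26% of all genes) and without BATF replicate 2 (1.65%) Slc30a4 was again the only member called. With no filter on low counts, where 1.53% of all genes passed, 1 member was called higher (Slc2a8) and 2 lower.

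The log2 fold change of BATF over MIG lay within 0.5 of 0 in 137 of 141 members. Beyond that band lay 2.84% of members against 12.1% of all genes tested. These shares are not matched for level, because members reach a mean of at least 2 FPKM and the genes tested went down to 0.0348 FPKM. No member reached a 2-fold difference, beside 430 of the 13008 genes tested. For 136 members the 95% interval of the edgeR fit stayed within a 2-fold difference in either direction. The same held for 9814 of the 13008 genes tested, again not matched for level. The other 5 members were Slc30a4, Slc2a8, Slc26a11, Slc25a13 and Slc25a23. Members had a median log2 fold change of −0.05 (all genes −0.01), and 87 lay below 0 and 54 above it, 61.7% below 0 against 51.5% of all genes. The groups did not overlap, in counts per library total scaled by TMM, in 67 members (47.5%), 46 lower and 21 higher in BATF, where 38.7% of all genes tested did not overlap (19.4% lower and 19.2% higher). MIG replicate 1 was the highest library in 50 members, MIG replicate 2 in 42, BATF replicate 1 in 21 and BATF replicate 2 in 28. The same shares over all genes were 29.1%, 27%, 23.6% and 20.3%, against 35.5%, 29.8%, 14.9% and 19.9% of members. Without MIG replicate 1, 82 members lay below 0 (58.2%, beside 50.2% of all genes).

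**Figure D2:**
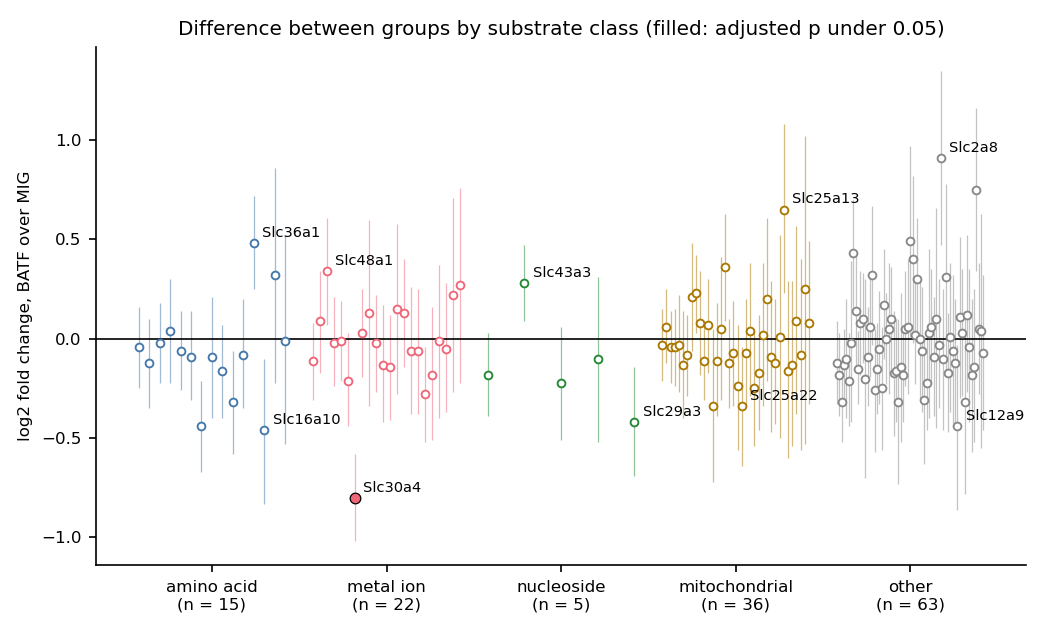
Log2 fold change of BATF over MIG for each member by substrate class, with the 95% interval of the edgeR fit; the filled point passed an adjusted p of 0.05. Slc30a4 at −0.80 is the filled point, and Slc2a8 at 0.91 is the highest open one.

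The median absolute log2 ratio between replicates was 0.15 in MIG and 0.10 in BATF, and the median absolute log2 fold change between groups was 0.12. Over all genes tested, which reach lower levels than the members, these medians were 0.19, 0.13 and 0.12. A replicate ratio compares single libraries and a fold change compares groups of 2, so the measures are not alike. In 47 members (33.3%) the group difference exceeded both replicate ratios, compared with 27.6% of all genes. The widest replicate ratio was that of Slc25a23, a calcium-regulated ATP-Mg/phosphate carrier, at 2.77 and 1.36 FPKM in MIG and 2.82 and 2.07 in BATF. Slc35g1 stood at 15.7 and 21.6 FPKM in MIG and at 13.3 and 19.1 in BATF, so that replicate 2 was the higher library in each group.

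**Figure D3:**
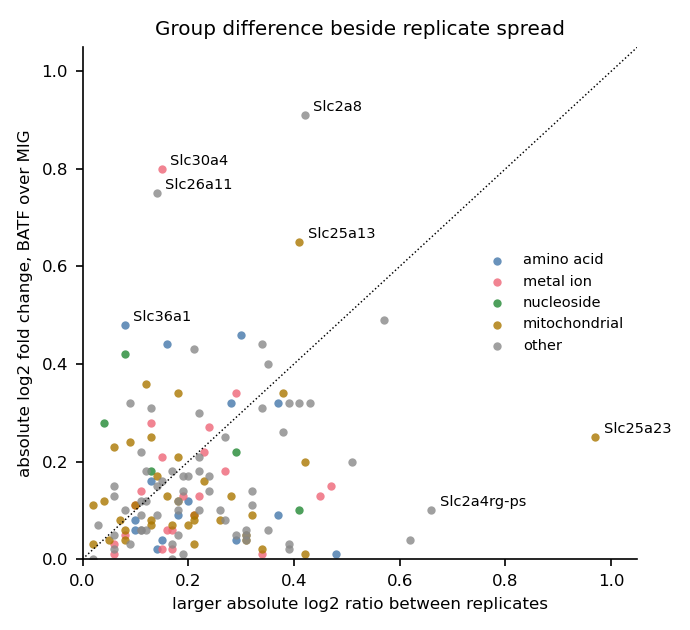
Absolute log2 fold change between groups against the larger of the absolute log2 ratios between replicates in MIG and in BATF, 1 point per member, coloured by substrate class. Points above the dotted line of equality, such as Slc30a4 and Slc26a11, are members whose group difference exceeds the replicate ratios of both groups.

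Slc30a4 encodes ZnT4, a transporter that moves zinc out of the cytosol into vesicles. It stood at 17.5 and 18.8 FPKM in MIG and at 10.1 and 10.7 in BATF, from 2256, 2111, 1034 and 1243 estimated fragments in the same order. Both BATF libraries lay well below both MIG libraries, and the gap was several times the difference within either group. The level fell from 18.1 ± 0.88 to 10.4 ± 0.421 FPKM (SD, n = 2 per group), to 0.574 of the MIG level with a 95% interval from 0.493 to 0.669 (log2 fold change −0.80 ± 0.09 SE, edgeR adjusted p = 0.0203). Its call held without each library in turn, with log2 fold changes between −0.88 and −0.72 and edgeR adjusted p between 0.00227 and 0.0315.

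The upstream sequence of Slc30a4 is shown because it is the member that changed, beside that of Slc30a1, the zinc exporter of the plasma membrane and a well-known target of the zinc sensor MTF-1. Each is the 250 bases before the RefSeq transcript start (GRCm38.p6, not the mm9 build of the deposited table), read along the gene. Capitals mark the core of the metal response element, searched on both strands as TGCACNC or TGCGCNC.

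Slc30a4 (chr2:122702664-122702913, minus strand): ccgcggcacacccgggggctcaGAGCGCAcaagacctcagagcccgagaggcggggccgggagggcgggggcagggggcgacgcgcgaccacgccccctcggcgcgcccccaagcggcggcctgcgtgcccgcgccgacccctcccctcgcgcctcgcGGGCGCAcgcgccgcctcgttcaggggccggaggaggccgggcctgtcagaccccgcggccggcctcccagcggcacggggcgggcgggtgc

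Slc30a1 (chr1:191906531-191906780, plus strand): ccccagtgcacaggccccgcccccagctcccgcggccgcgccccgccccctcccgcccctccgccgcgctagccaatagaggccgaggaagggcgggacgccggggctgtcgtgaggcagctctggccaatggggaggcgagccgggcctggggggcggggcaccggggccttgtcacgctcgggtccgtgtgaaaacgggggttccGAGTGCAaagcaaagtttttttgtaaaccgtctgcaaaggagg

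The Slc30a4 sequence held 2 matches, which began 228 and 92 bases before the start, and the Slc30a1 sequence held 1, which began 43 bases before it. The core is common: it was in 27.9% of the 140 member promoters in the RefSeq table, which cover 104 of the 141 members, and in 29.4% of the 12586 promoters of all tested genes. The AP-1 motif TGANTCA, which reads as the same pattern on both strands and is the site family that BATF and JUN proteins bind, was in neither sequence. It was in 7 of the 140 member promoters (5.0%), each from a different gene, against 4.40% of the promoters of tested genes and 6.75% of all 32851 promoters. The AP-1 sites of 3 of these 7 genes, Slc25a13, Slc2a9 and Slc7a1, are shown as examples with 20 bases on each side and the AP-1 motif in capitals.

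Slc25a13 (chr6:6217277-6217323, minus strand): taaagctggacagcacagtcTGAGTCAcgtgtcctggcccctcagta

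Slc2a9 (chr5:38483503-38483549, minus strand): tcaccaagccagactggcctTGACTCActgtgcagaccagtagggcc

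Slc7a1 (chr5:148400001-148400047, minus strand): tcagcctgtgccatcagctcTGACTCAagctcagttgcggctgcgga

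The first of these members, Slc25a13, had the highest log2 fold change of the mitochondrial class, and its values are given with that class. Slc2a9 stood at 2.43 and 1.82 FPKM in MIG and 2.65 and 1.73 in BATF. Slc7a1 stood at 17.9 and 22.4 against 18.2 and 19.5 FPKM. In both genes the groups overlapped. A separate search on both strands for the amino acid response element core TGATGNAA found it in 1.43% of member promoters and 2.07% of those of tested genes. No binding was measured here, and a match is a description of the letters only.

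The zinc transporters as a whole stood at similar levels in both groups, apart from Slc30a4. The Slc30 family lowers cytosolic zinc and the Slc39 family raises it. Of 6 Slc30 members 1 fell (16.7%, where 0.208% of all genes were called lower) and 0 rose, with a median log2 fold change of −0.04, and of 11 Slc39 members 0 passed (0 at an unadjusted edgeR p under 0.05, and 0 in DESeq2), with a median of −0.02 and a range from −0.18 to 0.27. Slc30a5, a subunit of the zinc transporter of the secretory pathway, stood at 24.2, 24.3, 23.4 and 24.6 FPKM in MIG and BATF in turn. Slc30a7, which fills the Golgi with zinc, stood at 4.79 and 4.73 against 3.69 and 4.12 FPKM and did not pass (log2 fold change −0.28 ± 0.10 SE, edgeR adjusted p = 0.355).

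Slc39a7, Slc39a6 and Slc39a1 were high among the importers. Slc39a7, which releases zinc from the endoplasmic reticulum, stood at 50.6 and 46 FPKM in MIG and 43.4 and 44.5 in BATF. Slc39a6 stood at 30.7 and 34.1 against 31.8 and 36.8 FPKM, and Slc39a1, a zinc importer of the plasma membrane, at 28.3 and 24.5 against 26.2 and 25.9. The groups overlapped for Slc39a6 and Slc39a1, and for Slc39a7 the BATF libraries were the lower ones by less than the spread in MIG. At the low end, Slc39a13 stood at 2.01 and 1.6 against 2.30 and 2.1 FPKM.

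**Figure D4:**
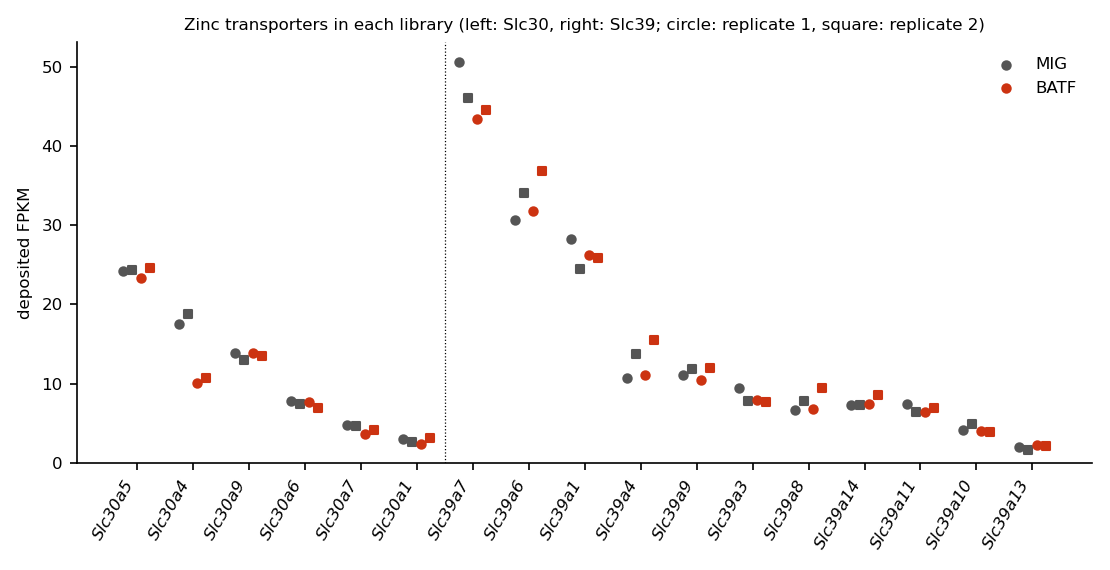
Deposited FPKM of the 6 Slc30 and 11 Slc39 members in each library (grey MIG, red BATF). For Slc30a4 the BATF points at 10.1 and 10.7 sit apart from the MIG points at 17.5 and 18.8, and no other zinc transporter passed the test.

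Carriers of iron, copper, magnesium and haem made up the rest of the metal ion class, and 0 of these 5 members passed in edgeR or in DESeq2. Before adjustment, 1 was higher at an edgeR p under 0.05, which 10.8% of all genes reached in either direction. Slc48a1, which exports haem from lysosomes and endosomes, stood at 26.6 and 24.7 FPKM in MIG and at 28.9 and 35.9 in BATF, without overlap but with a wide gap between the BATF libraries (log2 fold change 0.34 ± 0.11 SE, edgeR adjusted p = 0.311). Exons of Slc48a1 share bases with Hdac7 on the opposite strand, and whether counting used strand is not stated. Slc11a2, the proton-coupled importer of ferrous iron, stood at 18.7 and 16.1 against 14.7 and 15.6 FPKM (log2 fold change −0.21, edgeR adjusted p = 0.546). The copper importer Slc31a1 stood at 8.22 and 8.53 against 7.37 and 7.74. Ferroportin, the iron exporter Slc40a1, was at most 0.129 FPKM in any library and is no member.

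Other genes of metal handling were read beside the carriers. Of 13 tested, 1 rose (7.69% against 1.09% of all genes) and 0 fell. Fth1, the ferritin heavy chain that stores iron, stood at 800.8 and 712.8 FPKM in MIG and 1154 and 1157 in BATF (log2 fold change 0.62 ± 0.08 SE, edgeR adjusted p = 0.0262). Fth1 also passed in DESeq2 (adjusted p = 2.72e-07), in limma-voom (0.0275) and in edgeR with no filter on low counts (0.00179). It did not pass in edgeR when either BATF library was left out, with log2 fold changes of 0.6 and 0.63. The metallothionein Mt2, which binds zinc, stood at 77.9 and 63.0 against 120.5 and 111.4 FPKM and missed the threshold (log2 fold change 0.73, edgeR adjusted p = 0.0606). Mt2 did pass in DESeq2 (adjusted p = 0.000875) and in edgeR with no filter on low counts (0.0103), but not in limma-voom (0.0614). As each library was left out in turn, the log2 fold change of Mt2 ran from 0.61 to 0.86. Its relative Mt1 stood at 217.2 and 165.1 against 251.2 and 222.2 FPKM. The zinc sensor Mtf1 stood at 4.77 and 4.64 against 3.91 and 4.68, and the transferrin receptor Tfrc at 58.4 and 75.8 against 69.7 and 74.9.

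None of the 15 amino acid carriers passed (edgeR, 1 higher and 3 lower before adjustment at 0.05, 26.7% of the class beside 10.8% of all genes; DESeq2, which called 3.03% of all genes, called 1 higher and 1 lower). The median log2 fold change was −0.08, 12 members lay below 0 and 3 above (20% above, beside 48.5% of all genes), and the range ran from −0.46 to 0.48. The large neutral amino acid transporter is a pair of the light chain Slc7a5 (LAT1) and the heavy chain Slc3a2 (CD98). Slc7a5 stood at 54.4 and 58.2 FPKM in MIG and 53.0 and 55.9 in BATF, and Slc3a2 at 55.6 and 53.8 against 50.6 and 57.0. The ratio of Slc7a5 to Slc3a2 lay between 0.979 and 1.08 in the 4 libraries, so the mRNAs of both chains stood at nearly equal levels per length. The log2 fold change of Slc7a5 was −0.04, with a 95% interval from −0.25 to 0.16.

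The glutamine carriers were close to them in level. Slc1a5 (ASCT2), an exchanger of small neutral amino acids, stood at 62.4 and 52.3 FPKM in MIG and 50.6 and 54.1 in BATF. The sodium-coupled Slc38a1 stood at 41.2 and 42.6 against 40.9 and 39, and Slc38a2 at 38.4 and 42 against 36 and 39.6. The 95% intervals of the log2 fold changes ran from −0.35 to 0.10, from −0.26 to 0.14 and from −0.31 to 0.14. The cationic carrier Slc7a1, which imports arginine, has been given above, and Slc7a6, a light chain that also pairs with Slc3a2, stood at 14.4 and 15.2 against 12.7 and 13.7 FPKM. The level of Slc7a6 was 3.78 to 4.18 times lower than that of Slc7a5. The cystine carrier Slc7a11 was at most 0.136 FPKM, and Slc38a9, the lysosomal arginine sensor, stood between 1.28 and 1.54 FPKM; neither is a member.

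The members of this class with the smallest p lay at lower levels than Slc7a5, Slc3a2 and the glutamine carriers. Slc36a1 (PAT1), a proton-coupled exporter of small amino acids from lysosomes, stood at 6.43 and 5.85 FPKM in MIG and at 8.42 and 8.67 in BATF. The groups were apart, with little spread inside either, and the log2 fold change was 0.48 ± 0.10 SE (edgeR adjusted p = 0.0973, DESeq2 adjusted p = 0.0322). Slc36a1os, whose symbol marks it as the opposite-strand transcript of that gene, stood at 3.58 and 4.21 against 5.32 and 4.29 FPKM. Slc6a6, the taurine importer, stood at 25.4 and 27.2 against 18.1 and 20.6 FPKM (log2 fold change −0.44 ± 0.10 SE, edgeR adjusted p = 0.118, DESeq2 adjusted p = 0.0187). Slc6a6 passed in edgeR with no filter on low counts (adjusted p = 0.0483) but not in limma-voom (0.133). Its log2 fold change ran from −0.52 to −0.36 as each library was left out. Slc16a10, a carrier of aromatic amino acids and thyroid hormone, stood at 3.90 and 4.80 against 2.98 and 3.30, and Slc43a2 (LAT4), which lets branched-chain amino acids pass, at 17 and 13.5 against 11.7 and 12.6. Their edgeR adjusted p were 0.300 and 0.324.

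**Figure D5:**
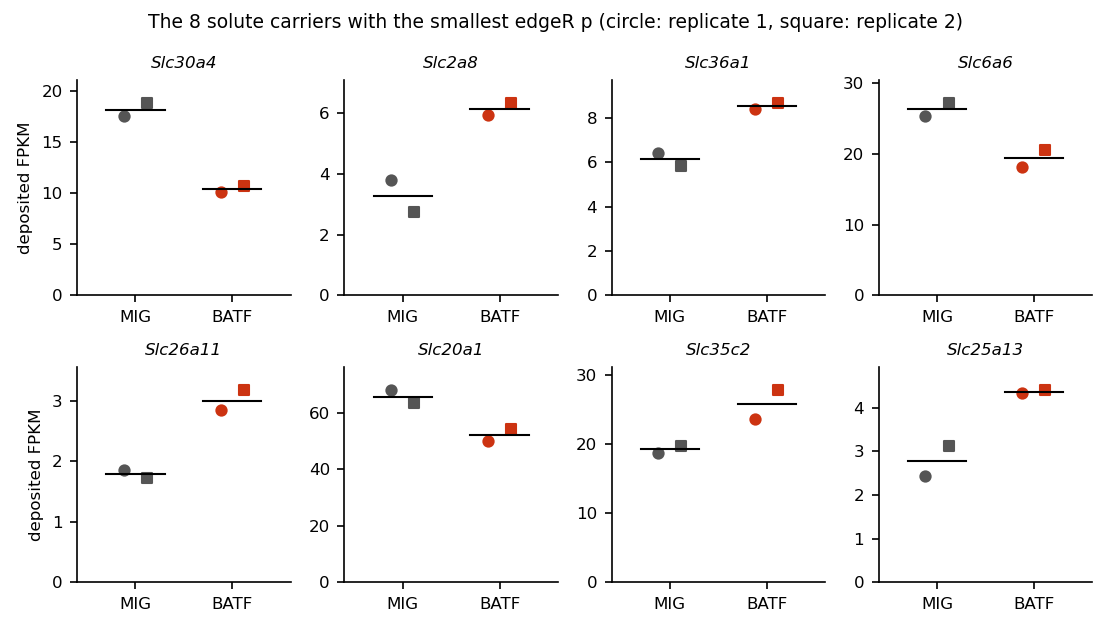
Deposited FPKM in each library for the 8 members with the smallest edgeR p, from Slc30a4 to Slc25a13; circles are replicate 1, squares replicate 2 and lines the group means. Members were picked for their small p in this comparison, so the gap between groups in the panels is a description; only Slc30a4 passed the adjusted threshold.

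Genes that respond to amino acid supply or use amino acids gave 0 calls among 16 tested, with a median log2 fold change of 0.07. At an unadjusted edgeR p under 0.05, 3 were higher and 1 lower, 25% beside 10.8% of all genes. Atf4, the transcription factor of the amino acid response, stood at 89.5 and 93.8 FPKM in MIG and 100.8 and 122.2 in BATF, and its target Asns, asparagine synthetase, at 10.2 and 10.4 against 12.2 and 14.3. Trib3, a pseudokinase of the same response, stood lower in BATF, at 11.7 and 9.09 against 6.87 and 7.34 FPKM. Sesn2, of the same list, stood at 7.05 and 6.39 against 9.19 and 8.75 FPKM. These genes were chosen after their values were seen, and none passed (edgeR adjusted p of 0.411, 0.344, 0.219 and 0.237). Of 10 genes of amino acid sensing at the lysosome 0 were called, and 0 reached an unadjusted edgeR p under 0.05.

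Among the 5 nucleoside carriers 0 passed in edgeR or in DESeq2. Before adjustment, 1 was higher and 1 lower at an edgeR p under 0.05, 40% beside 10.8% of all genes. Slc29a1 (ENT1), the equilibrative nucleoside transporter of the plasma membrane, stood at 52.8 and 54.2 FPKM in MIG and 44.6 and 49.5 in BATF (log2 fold change −0.18, 95% interval −0.39 to 0.03). Slc43a3, a purine nucleobase carrier, stood at 28.1 and 26.4 against 32.5 and 33.4 FPKM (log2 fold change 0.28 ± 0.08 SE, edgeR adjusted p = 0.231). Slc29a3 (ENT3), which lets nucleosides leave lysosomes, stood at 5.12 and 5.20 against 3.81 and 3.90 FPKM (log2 fold change −0.42 ± 0.12 SE, edgeR adjusted p = 0.215). For Slc43a3 and Slc29a3 the gap between groups was several times the gap between replicates, in opposite directions. The concentrative carrier Slc28a2 stood at 16 and 12.6 against 12.3 and 12.1 FPKM, and the vesicular nucleotide carrier Slc17a9 at 14.2 and 10.3 against 12.4 and 10.4. Of 11 nucleoside salvage genes tested 0 passed in edgeR and 1, Samhd1, in DESeq2, which called 3.03% of all genes. At an unadjusted edgeR p under 0.05, 2 were lower, 18.2% beside 10.8% of all genes. They were Ada, adenosine deaminase, at 23.3 and 18.1 against 14.8 and 15.9 FPKM, and the dNTP hydrolase Samhd1 at 233.9 and 186.4 against 155.2 and 136.0. Samhd1 (log2 fold change −0.52 ± 0.12 SE, edgeR adjusted p = 0.137) passed in DESeq2 (adjusted p = 0.00554), and in edgeR with no filter on low counts (0.0261) and without MIG replicate 2 (0.0126).

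The mitochondrial class held the most abundant members. Its 36 genes took 45.1% to 46.5% of the summed FPKM of all members in each library, and 3 of them, Slc25a5, Slc25a4 and Slc25a3, took 31.5% to 32.8%. Slc25a5 and Slc25a4 exchange ADP for ATP across the inner membrane, and Slc25a3 imports phosphate. Slc25a5 stood at 551.4 and 539.8 FPKM in MIG and 524.6 and 542.5 in BATF, Slc25a4 at 205.4 and 194.9 against 195.6 and 192.1, and Slc25a3 at 294.5 and 288.4 against 292.0 and 314.5. The ratio of Slc25a5 to Slc25a4 was 2.68 and 2.77 in MIG and 2.68 and 2.82 in BATF. These are closely related paralogs, so fragments could be split between them or with their pseudogenes, and their levels are uncertain to that extent. The 95% interval of the log2 fold change of Slc25a5 ran from −0.21 to 0.15.

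None of the 36 passed (edgeR, 3 higher and 1 lower before adjustment at 0.05, 11.1% beside 10.8% of all genes; 0 in DESeq2), and the median log2 fold change was −0.04. Slc25a13 (citrin), the aspartate-glutamate carrier of the malate-aspartate shuttle, stood at 2.44 and 3.13 FPKM in MIG and 4.34 and 4.40 in BATF, from 174 to 283 estimated fragments a library. Its groups were apart and its log2 fold change of 0.65 ± 0.18 SE was the highest of the class (edgeR adjusted p = 0.202). Its more abundant relative Slc25a12 stood at 25.8 and 23.6 against 22.8 and 23.7 FPKM, with overlapping groups in FPKM. The calcium-regulated Slc25a24 stood at 19.9 and 19.9 against 23.3 and 23 FPKM (log2 fold change 0.23, edgeR adjusted p = 0.366). Slc25a22, a glutamate carrier, had a log2 fold change of −0.34 and was the 1 member lower at an unadjusted p under 0.05, at 11.4 and 9.64 against 8.04 and 8.44 FPKM (edgeR adjusted p = 0.368). To 2 decimals, it shared the lowest log2 fold change of the class with Slc25a45, an orphan carrier at 16.7 and 12.4 against 12.1 and 10.8 FPKM (−0.34 ± 0.16 SE, edgeR adjusted p = 0.565), with MIG replicate 1 standing above the other libraries.

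Carriers tied to fat and citrate metabolism lay between these. Slc25a20, the carnitine-acylcarnitine carrier, stood at 22.7 and 19.3 FPKM in MIG and 23 and 25.5 in BATF, and the citrate carrier Slc25a1 at 20.9 and 19.7 against 20.2 and 22.5. Slc25a17, placed in this class by its family although the protein sits in peroxisomes, stood at 27.3 and 29.2 against 24.1 and 27.4. Of 14 other genes of mitochondrial transport 0 passed, with 1 higher at an unadjusted edgeR p under 0.05 (7.14% beside 10.8% of all genes). That gene was Mcu, the pore of the mitochondrial calcium uniporter, at 3.89 and 3.21 against 6.14 and 4.38 FPKM (edgeR adjusted p = 0.342). The sodium-calcium exchanger of mitochondria, Slc8b1, stood at 5.92 and 4.58 against 4.65 and 5.08.

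Of the 63 other members 0 passed (edgeR, 4 higher and 2 lower before adjustment at 0.05, 9.52% beside 10.8% of all genes; DESeq2 called 1 higher). The 3 most abundant were Slc9a3r1, which encodes the scaffold protein NHERF1, at 234.1 and 198.9 FPKM in MIG and 195.0 and 201.3 in BATF, the choline transporter-like gene Slc44a2 at 69.8 and 59.9 against 57.8 and 56.3, and the sodium-phosphate importer Slc20a1. Slc20a1, which is also a receptor for some retroviruses, stood at 67.9 and 63.4 against 50.1 and 54.2 FPKM. Its groups were apart (log2 fold change −0.32 ± 0.08 SE, edgeR adjusted p = 0.164), and the 95% interval ran from −0.52 to −0.13. Its relative Slc20a2 stood at 4.94 and 4.2 against 3.87 and 4.6.

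Slc2a8 (GLUT8), a sugar transporter of intracellular membranes, had the highest log2 fold change of all members. It stood at 3.81 and 2.74 FPKM in MIG and at 5.94 and 6.34 in BATF, from 175, 110, 218 and 263 estimated fragments. The BATF libraries were both above the MIG libraries, and the MIG libraries differed more from each other than the BATF libraries did. The fold difference was 1.88 with a 95% interval from 1.39 to 2.56 (log2 fold change 0.91 ± 0.19 SE, edgeR adjusted p = 0.0946). It passed in DESeq2 (adjusted p = 0.0214) and in edgeR with no filter on low counts (0.0272), but not in limma-voom (0.0986). The log2 fold change ran from 0.72 to 1.14 as each library was left out. The other 6 sugar and phosphosugar members had log2 fold changes from −0.32 to 0.06.

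Inorganic ion carriers gave 0 calls among 15 members (edgeR, 2 higher and 2 lower before adjustment at 0.05, 26.7% beside 10.8% of all genes; 0 in DESeq2). Slc26a11, a sulphate and anion transporter, stood at 1.86 and 1.73 FPKM in MIG and 2.84 and 3.17 in BATF, from 92 to 174 estimated fragments a library (log2 fold change 0.75 ± 0.17 SE, edgeR adjusted p = 0.136). Slc4a7, a sodium-bicarbonate carrier, stood at 7.85 and 5.88 against 11.4 and 7.77 FPKM, with replicate 1 above replicate 2 in each group. Slc12a9 stood at 4.16 and 3.17 against 2.53 and 2.84. The sodium-potassium-chloride importer Slc12a2 stood at 2.22 and 2.25 against 2.43 and 2.18 FPKM. Stk39, a kinase that activates Slc12a2, stood at 27.6 and 30.3 against 40.2 and 45.7 FPKM (log2 fold change 0.57 ± 0.10 SE, edgeR adjusted p = 0.0627). It passed in DESeq2 (adjusted p = 0.000791) and in edgeR with no filter on low counts (0.00849), but not in limma-voom (0.0699). Its log2 fold change ran from 0.48 to 0.67 as each library was left out. In edgeR 0 of the 8 genes of its list passed, and in DESeq2, which called 3.03% of all genes, Stk39 alone did. Before adjustment, 2 were higher (Stk39 and Bsg) and 1 lower (Emb) at an edgeR p under 0.05, 37.5% beside 10.8% of all genes. Bsg, a chaperone of lactate carriers, stood at 188.2 and 176.7 against 219.2 and 215.8 FPKM (edgeR adjusted p = 0.245). The related Emb stood at 135.8 and 139.0 against 107.0 and 126.2 (edgeR adjusted p = 0.46).

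The Slc35 family, taken here by name whatever the substrate, includes carriers that bring nucleotide sugars into the Golgi and the endoplasmic reticulum for glycosylation. It had 19 members, of which 0 passed in edgeR or in DESeq2. Before adjustment, 1 was higher and 0 lower at an edgeR p under 0.05, 5.26% beside 10.8% of all genes. In this family 14 members lay below 0 and 5 above (26.3% above, beside 48.5% of all genes), with a median log2 fold change of −0.10. Slc35c2, which acts on protein fucosylation, stood at 18.7 and 19.8 FPKM in MIG and 23.7 and 27.8 in BATF (log2 fold change 0.43 ± 0.11 SE, edgeR adjusted p = 0.193). Slc35c1, the GDP-fucose carrier of the Golgi, stood at 31.9 and 26.1 against 25.1 and 25.1. The vitamin carriers gave 0 calls among 7 members (0 at an unadjusted edgeR p under 0.05, and 0 in DESeq2): the reduced folate carrier Slc19a1 stood at 14.3 and 14.6 against 11 and 13.4 FPKM, the thiamine carrier Slc19a2 at 5.46 and 6.08 against 7.0 and 7.23, and the riboflavin carrier Slc52a3 at 7.88 and 6.13 against 8.09 and 10.5.

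The exons of 19 members share bases with another listed gene, 16 of them with one on the opposite strand, among them Slc39a13 with Psmc3 and Slc4a2 with Fastk. Counts of these members could include fragments of the partner. One Slc gene below the level of 2 FPKM was called higher: Slc22a15, of the organic ion carrier family, stood at 0.871 and 0.931 FPKM in MIG and 2.08 and 1.71 in BATF (log2 fold change 1.08 ± 0.17 SE, edgeR adjusted p = 0.0478). That gene did not pass in edgeR without MIG replicate 1 (adjusted p = 0.0569) or without BATF replicate 1 (0.123), nor in limma-voom (0.0614).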

How the data were processed

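The 4 RNA-seq libraries of P14 CD8 T cells were grouped by title, 2 with MIG and 2 with MIG carrying BATF. The submitters' processing notes list TopHat2 2.1.1, Cufflinks 2.2.2, Cuffdiff and mm9, and do not state the annotation, filters or strandedness. The deposited table gives estimated counts of fragments per gene and library before scaling, and FPKM scaled between libraries by the authors' Cuffdiff run, per the file headers. It numbers replicates 0 and 1, which were read as replicates 1 and 2; the numbers only name libraries. Replicates differed by more than counting noise (chi-square per gene 17.7 in MIG and 9.49 in BATF).

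Estimated counts were rounded and tested over all genes in R 4.3.3 with edgeR 4.0.16 (filterByExpr, TMM factors 0.988 to 1.01, glmQLFit and glmQLFTest, no covariate, Benjamini-Hochberg over 13008 genes, threshold 0.05). Each SE is the unshrunk coefficient over the square root of F, and intervals use that fit's 6.8 degrees of freedom. All 141 members passed the filter. DESeq2 1.42.0, limma 3.58.1 (voom, and log2(FPKM + 1) or log2(FPKM + 0.1)), no filter, other scalings, a replicate block and leaving out each library were alternatives. A permutation test of 2 against 2 cannot go below p = 0.333 and was not run. Members, classes and lists were chosen with earlier results of these data known. Named members were the called ones, the 3 most abundant and the highest and lowest log2 fold change of each class, those at the level limit and 25 landmarks (2 further landmarks are not reported here); others were named after their values were seen. Promoters come from RefSeq (GRCm38.p6) and exon overlaps from GENCODE M21; neither entered a test.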

Additional observations from a re-analysis of the deposited data

How the results depend on the processing

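Slc30a4 was called lower under each alternative run except limma on log2(FPKM + 1), where 0 members were called lower (Slc30a4 adjusted p = 0.0657, log2 fold change −0.75). DESeq2 called 2 members higher and 2 lower, no filter on low counts gave 1 higher and 2 lower, and a level of at least 1 FPKM gave 1 higher (Slc22a15). Leaving out a library gave 0 to 1 higher and 1 to 3 lower; the lone library of a group is then assumed to vary like the other group. With the replicate number as a block, which leaves 1 residual degree of freedom, 12 members were called higher and 10 lower; over all genes that fit called 11.6%. Same-numbered libraries deviated together only weakly (correlation 0.181 over genes), and no label ties them, so the block was not taken as pairing. The cause of these changes was not tested. Of 36 named members 29 kept their sign in every alternative; the other 7 turned in fits that left out 1 library, and all had log2 fold changes near 0: Slc12a2 (−0.04 to 0.14), Slc38a2 (−0.17 to 0.01), Slc39a1 (−0.09 to 0.06), Slc39a6 (−0.01 to 0.19), Slc3a2 (−0.09 to 0.05), Slc7a1 (−0.27 to 0.10) and Slc7a5 (−0.12 to 0.03). The 5 class medians lay below 0 in each alternative run, and ranged from −0.13 to −0.06 for amino acid carriers (−0.08 in the fit reported), from −0.10 (without BATF replicate 2) to −0.005 (upper-quartile scaling) for metal ions (−0.02), from −0.29 (without MIG replicate 2) to −0.07 (without MIG replicate 1) for nucleosides (−0.18), from −0.07 to −0.03 for mitochondrial (−0.04) and from −0.06 to −0.02 for other members (−0.04). With upper-quartile scaling 83 members lay below 0, beside 87. The SE of the log2 fold change was highest for Slc25a23 (0.33), whose MIG replicates differed most. It was 0.21 for Slc39a13, whose 75 estimated fragments in MIG replicate 2 were the fewest of any member in a single library.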
